A study of Homo sapiens with 17 samples.

Results

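The BCL2 family genes MCL1, BCL2L1, BCL2, BMF, BCL2L11, BBC3, PMAIP1, BID, BAX and BAK1 were followed through RNA sequencing of squamous cancer cells in which the oncogene SOX2, its enhancer e1 or BET bromodomain proteins had been perturbed. The 10 genes were taken by symbol from the 57820 genes of each library, and all 10 were found. They were selected on values in these data, namely the low MCL1 RNA after ARV-771 and the high BMF RNA on e1 activation, so member values in those comparisons are a description without a test. The 17 libraries came from KYSE140, an esophageal squamous cancer line (13 libraries), and SKMES1, a lung squamous cancer line (4 libraries). KYSE140 cells stably carrying a CRISPRi repressor, a Cas9 that does not cut, received guides sg-e1#1 and sg-e1#2 or the non-targeting guides sg-NC#1 and sg-NC#2 (CRISPRi, 2 libraries each). KYSE140 cells carrying active Cas9 received guide 2, 3 or 4 against the SOX2 coding region (3 libraries), or a guide to AAVS1 or to a site on chromosome 2 (knockout controls, 2 libraries). These were selected populations of infected cells, not clones. KYSE140 cells were treated with 0.5 µM ARV-771, a degrader of BET proteins, or with the solvent DMSO for 6 h (2 libraries each, lettered A and B). They are called cultures below, although the labels do not say whether the letters mark separate cultures or pair the treatments. SKMES1 cells carrying dCas9-VP64 received sg-e1#1 and sg-e1#3 or the non-targeting guides (CRISPRa, 2 libraries each), in a system that also brings further activators to the guide. Replicates were different guides or lettered libraries, so p-values measure the spread between these samples only. In bulk RNA, fewer cells of a kind and less RNA per cell cannot be told apart.

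Proteins of the BCL2 family decide whether the outer mitochondrial membrane is opened, the step that releases cytochrome c and commits a cell to the mitochondrial route of apoptosis. BAX and BAK1 are the effectors that form the pores. MCL1, BCL2L1 (whose main product is BCL-XL) and BCL2 are pro-survival members that hold the effectors and their activators in check. The BH3-only members BMF, BCL2L11 (BIM), BBC3 (PUMA), PMAIP1 (NOXA) and BID bind into a groove of the pro-survival proteins, and some of them also engage the effectors. MCL1 RNA and protein are both short-lived, and MCL1 is often amplified in carcinomas.

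The family shares the BH3 motif, a leucine followed after any 3 residues by glycine or alanine and then aspartate. Searching the translated coding sequence of the reference transcript of each gene (GENCODE release 44 on GRCh37) found this pattern at 1 place in each of the 10 proteins. The matches lay within 1 exon in every gene, in windows of 42 bases that comprise MCL1 at chr1:150551341-150551382 on the minus strand, BCL2L1 at chr20:30309725-30309766 on the minus strand, BCL2 at chr18:60985582-60985623 on the minus strand, BMF at chr15:40396396-40396437 on the minus strand, BCL2L11 at chr2:111907668-111907709 on the plus strand, BBC3 at chr19:47729836-47729877 on the minus strand, PMAIP1 at chr18:57569893-57569934 on the plus strand, BID at chr22:18222181-18222222 on the minus strand, BAX at chr19:49459032-49459073 on the plus strand and BAK1 at chr6:33543164-33543205 on the minus strand. These stretches are shown because the BH3 motif is the one region that BH3-only members share with the others, which also have further BH domains. They are coding-strand bases read 5′ to 3′, with the 18 bases of the motif in capitals.
MCL1: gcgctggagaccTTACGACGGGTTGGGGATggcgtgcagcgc
BCL2L1: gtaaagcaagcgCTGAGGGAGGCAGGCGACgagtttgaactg
BCL2: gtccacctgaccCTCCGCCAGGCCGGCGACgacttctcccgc
BMF: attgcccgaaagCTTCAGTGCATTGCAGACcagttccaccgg
BCL2L11: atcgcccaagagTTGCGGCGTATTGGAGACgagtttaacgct
BBC3: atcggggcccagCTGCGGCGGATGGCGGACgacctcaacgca
PMAIP1: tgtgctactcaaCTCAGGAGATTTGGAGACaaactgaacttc
BID: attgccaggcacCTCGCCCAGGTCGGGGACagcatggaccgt
BAX: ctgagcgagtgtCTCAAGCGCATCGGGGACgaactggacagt
BAK1: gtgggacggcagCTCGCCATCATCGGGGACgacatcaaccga
Each capital run opened with a leucine codon and closed with GAC or GAT for aspartate. The fifth codon coded for glycine in 8 genes and for alanine in BMF and BBC3. The reference proteins ranged from 54 residues in PMAIP1 to 350 residues in MCL1.

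Libraries held 7260730 to 15781463 expected counts, and 3 counts corresponded to 0.19 to 0.413 CPM (counts scaled to library size). SOX2 RNA, which checks the labels, was at 365 and 379 TPM (CRISPRi controls) and at 120 and 128 TPM on e1 repression. Knockout controls held 397 and 428 TPM of it, and SOX2 guides 103, 125 and 221 TPM. In SKMES1 it was 1.53 and 1.68 TPM in controls and 224 and 316 TPM with e1 guides, and in KYSE140 it was 223 and 236 TPM with DMSO and 9.8 and 10.54 TPM with ARV-771. Of the squamous markers, KRT5 had at least 2398 TPM in every KYSE140 library but at most 1.26 TPM in SKMES1. There DSG3 had at most 0.1 TPM and TP63 at most 3.79 TPM. KRT6A (at most 19.2 TPM) and TRIM29 (at most 13.4 TPM) also lay below KYSE140, which had at least 1966 and 90.8 TPM. KRT14 overlapped, with 0 to 118 TPM in SKMES1 and 62.35 to 2644 TPM in KYSE140. PKP1 (72.0 to 141 TPM) was present, as was KRT8 (375 to 685 TPM), a marker of simple epithelium. Most but not all markers of the labelled squamous type were thus low or absent in SKMES1. Of the mesenchymal markers, ZEB1 was higher in SKMES1 (8.28 to 13.5 TPM) than in KYSE140 (at most 1.12 TPM). VIM (1178 to 2268 against 93.65 to 1280 TPM) and CDH2 (49.5 to 77.9 against 15.1 to 80.9 TPM) overlapped between the lines. The leukocyte genes PTPRC and CD3E had at most 0.55 TPM in any library. CD68, listed with them, went the other way, with 0.36 to 70.2 TPM in KYSE140 and 36.1 to 132 TPM in SKMES1.

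In the 6 KYSE140 control libraries (CRISPRi, knockout and DMSO controls), the members spanned a wide range of TPM, a level per transcript length and library. BID was the most abundant with a median of 143 TPM, followed by BAX with 119, MCL1 with 89.9 and BCL2L1 with 88.6 TPM. BAK1 followed with 35.6 TPM and PMAIP1 with 8.66 TPM. BCL2 (3.94 TPM), BCL2L11 (3.75 TPM), BMF (3.12 TPM) and BBC3 (2.08 TPM) were low. The range of MCL1 (73.4 to 134 TPM) overlapped those of BAX and BCL2L1, while BAX lay above BCL2L1 in every control, and the 4 low genes overlapped one another. BAK1 (30.6 to 40.5 TPM) overlapped no neighbour in this order, whereas the range of PMAIP1 (5.08 to 17.3 TPM) reached into that of BCL2 (3.26 to 6.8 TPM). BID and BAX met at 132.5 TPM.

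The 2 SKMES1 control libraries lay outside the range of the 6 KYSE140 controls for 5 of the 10 members, against 63.4% of the 14849 genes with a mean of at least 1 TPM. PMAIP1 showed the largest ratio of the 10 members, with 58.7 and 71.1 TPM in SKMES1 against 5.08 to 17.3 TPM in KYSE140, a ratio of mean levels of 6.68. BCL2L1 (122 and 166 against 71.9 to 100 TPM), BMF (6.67 and 6.94 against 2.18 to 4.76 TPM) and BAX (140 and 193 against 114 to 133 TPM) were also higher in SKMES1. BAK1 was lower, with 22.5 and 22.9 TPM against 30.6 to 40.5 TPM. The lines differ in origin, in SOX2 and in the CRISPR system carried, and these cannot be told apart.

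**Figure D1:**
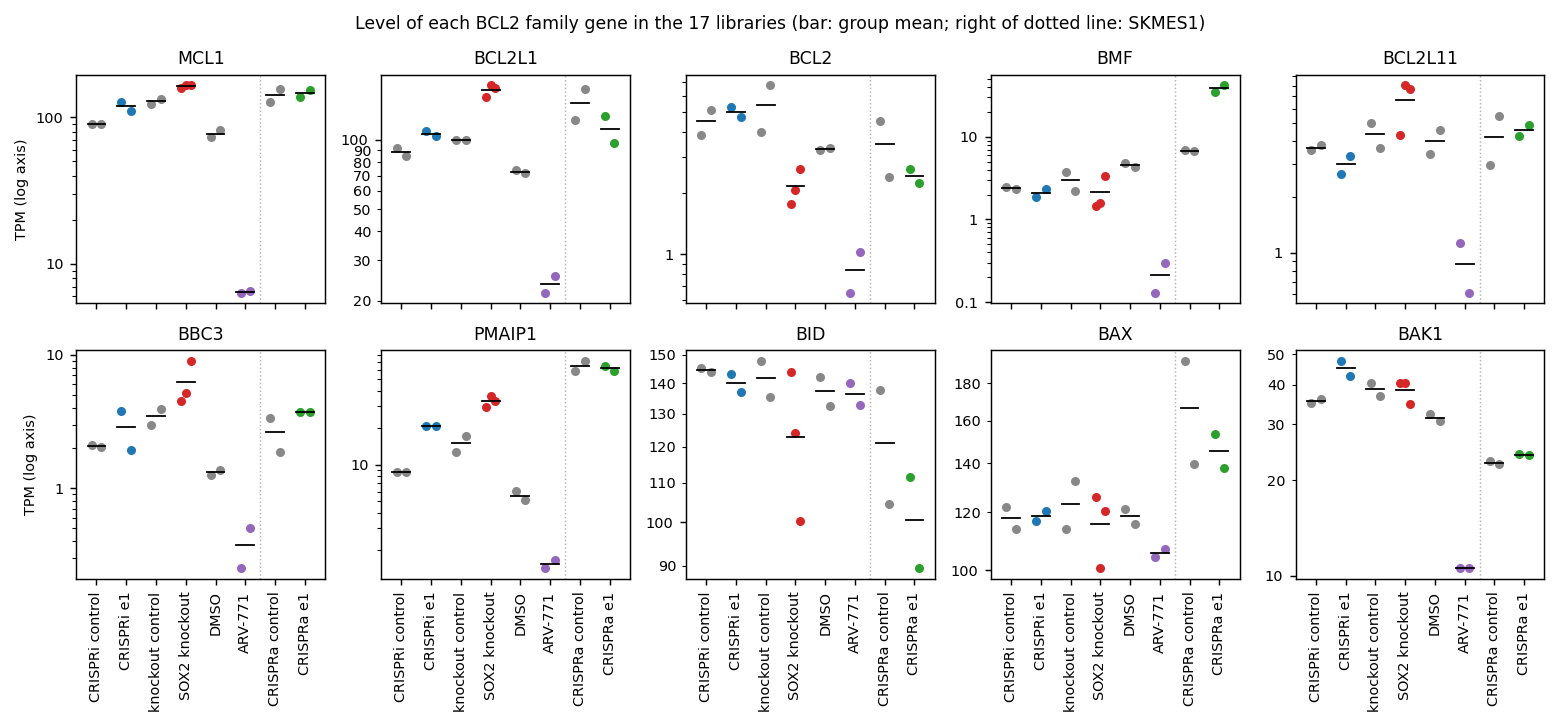
Level (TPM, log axis, a different range in each panel) of each of the 10 genes in the 17 libraries, 1 point per library, with a bar at each group mean; SKMES1 groups stand right of the dotted line. MCL1 stands at 6.37 and 6.58 TPM with ARV-771, and BMF reaches 34.5 and 42.4 TPM with CRISPRa at e1.

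MCL1 (ENSG00000143384.8, chr1:150533371-150552214 on GRCh37, minus strand) had 89.6 and 90.3 TPM in the CRISPRi controls and 126 and 111 TPM with e1 guides. The e1 libraries were both higher, and the log2 fold change was 0.40 (SE 0.06, 1.32-fold), with an edgeR adjusted p of 2.96e-05 (quasi-likelihood test, adjusted over all genes by Benjamini-Hochberg). In the knockout, MCL1 had 124 and 134 TPM in controls and 159, 166 and 166 TPM with SOX2 guides, again without overlap. There the log2 fold change was 0.52 (SE 0.07, 1.44-fold), with an edgeR adjusted p of 3.91e-05. Both rises stayed below the 1.5-fold minimum, so MCL1 was called in neither. DMSO cultures had 73.4 and 81.5 TPM and ARV-771 cultures 6.37 and 6.58 TPM, which is 6.47 ± 0.15 against 77.4 ± 5.76 TPM (SD, n = 2 each). The ARV-771 level was 11.96-fold lower by TPM and 7.51-fold lower by TMM-scaled counts (log2 fold change -2.91, SE 0.08). In SKMES1, MCL1 had 127 and 155 TPM in controls and 138 and 154 TPM with e1 guides, which overlapped, with a log2 fold change of 0.00 (SE 0.12).

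BCL2L1 (ENSG00000171552.8, chr20:30252255-30311792, minus strand) had 92.3 and 84.9 TPM in the CRISPRi controls and 109 and 104 TPM with e1 guides. This rise of 0.36 on the log2 scale (SE 0.06, edgeR adjusted p 2.36e-04) was below the fold minimum and reached an adjusted p of 0.0565 in limma on log2(TPM + 1). Knockout controls had 99.8 and 100.1 TPM and SOX2 guides 153, 173 and 169 TPM, well apart. That rise was a log2 fold change of 0.95 (SE 0.07, 1.93-fold), with an edgeR adjusted p of 4.32e-07. DMSO cultures had 73.9 and 71.9 TPM and ARV-771 cultures 21.7 and 25.5 TPM (log2 fold change -0.86, SE 0.08). SKMES1 libraries overlapped, with 122 and 166 TPM in controls and 127 and 96.9 TPM with e1 guides.

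BCL2 (ENSG00000171791.10, chr18:60790579-60987361, minus strand), the founding member of the family, was the least abundant of the pro-survival genes. Knockout controls had 4.01 and 6.8 TPM of it, and SOX2 guides 1.76, 2.08 and 2.63 TPM, with no overlap. The log2 fold change was -1.28 (SE 0.17, 2.43-fold lower), with an edgeR adjusted p of 5.52e-05. With e1 guides it had 5.28 and 4.75 TPM against 3.86 and 5.15 TPM in controls, whereas the expected counts were 135 and 151 against 197 and 211. Its log2 fold change on counts was -0.25 (SE 0.13, edgeR adjusted p 0.136), and limma on log2(TPM + 1) gave the opposite sign, at 0.14. RSEM assigned BCL2 a mean transcript length of 4161 and 4733 bases in the e1 libraries and 6635 and 5262 bases in their controls, which enters TPM and not the counts. DMSO cultures had 3.26 and 3.33 TPM and ARV-771 cultures 0.65 and 1.03 TPM (log2 fold change -1.23, SE 0.20). SKMES1 controls had 4.54 and 2.4 TPM and e1 libraries 2.63 and 2.24 TPM.

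Within the summed TPM of MCL1, BCL2L1 and BCL2, MCL1 held 48.0% to 60.8% in the 15 libraries without ARV-771. After ARV-771 it held 22.2% and 19.9%, and BCL2L1 held 75.6% and 77%. The summed level was 151 and 157 TPM with DMSO and 28.7 and 33.1 TPM with ARV-771. It was 186 and 180 TPM in the CRISPRi controls and 241 and 220 TPM with e1 guides. In the knockout it was 228 and 241 TPM in controls and 313, 341 and 338 TPM with SOX2 guides. The sums were thus higher in every library with e1 or SOX2 guides in KYSE140 than in its controls and lower in the ARV-771 libraries than with DMSO, and BCL2 contributed at most 3.11% to any of them.

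**Figure D2:**
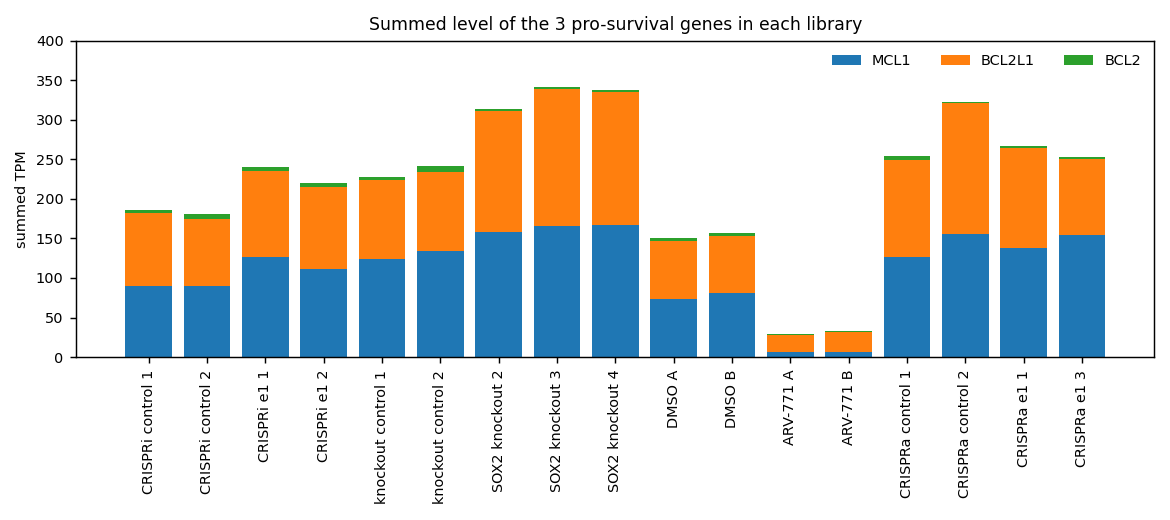
Summed TPM of the pro-survival genes MCL1 (blue), BCL2L1 (orange) and BCL2 (green) in each of the 17 libraries, as stacked bars from 0. The ARV-771 bars reach 28.7 and 33.1 TPM, and BCL2L1 makes up 75.6% and 77% of them.

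Of the BH3-only genes, BMF (ENSG00000104081.9, chr15:40380091-40401093, minus strand), which encodes a protein that binds dynein light chain, had the widest relative range over the libraries, from 0.13 to 42.4 TPM. In SKMES1 it had 6.94 and 6.67 TPM in controls (161 and 193 counts) and 34.5 and 42.4 TPM with e1 guides (756 and 1513 counts). The e1 libraries were far above the controls, at 38.5 ± 5.58 against 6.80 ± 0.19 TPM (SD, n = 2 each), a log2 fold change of 2.51 (SE 0.12, 5.68-fold). BMF held 3.31% and 3.52% of the summed TPM of the 5 BH3-only genes in SKMES1 controls and 15.8% and 21.3% with e1 guides. DMSO cultures had 4.76 and 4.34 TPM (128 and 121 counts) and ARV-771 cultures 0.13 and 0.3 TPM (5 and 15 counts), a log2 fold change of -3.24 (SE 0.30). This value was -4.02 without ARV-771 culture B and -2.82 without culture A.

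In e1 repression, BMF gave a result that depended on the scale. With e1 guides it had 27 and 44 counts against 86 and 84 in the CRISPRi controls, and the log2 fold change was -0.998 (SE 0.25), with an edgeR adjusted p of 0.00428. By TPM the same libraries overlapped, at 1.85 and 2.36 against 2.48 and 2.34 TPM. RSEM assigned BMF a length of 2462 and 2860 bases in the e1 libraries and 4575 and 4644 bases in the controls. Limma on log2(TPM + 1) gave -0.14 with an adjusted p of 0.73, and DESeq2 on counts gave -1.002 with an adjusted p of 0.0795. In the knockout, controls had 3.75 and 2.18 TPM and SOX2 guides 1.44, 1.59 and 3.32 TPM, which overlapped (log2 fold change -0.23, SE 0.33, edgeR adjusted p 0.581).

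**Figure D3:**
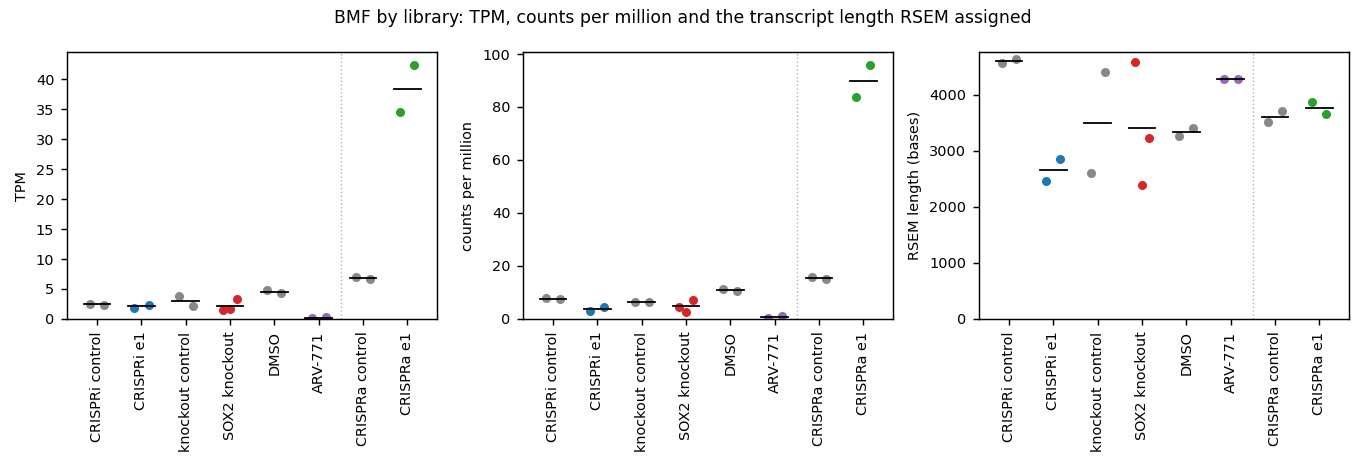
BMF in each library as TPM (left), CPM from expected counts (middle) and the transcript length RSEM assigned (right, bases), with a bar at each group mean and SKMES1 right of the dotted line. TPM and CPM both place the SKMES1 e1 libraries above their controls, while the lengths of 2462 and 2860 bases with CRISPRi at e1 stand below the 4575 and 4644 bases of the controls.

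PMAIP1 (ENSG00000141682.11, chr18:57567228-57571537, plus strand), the gene of NOXA, a BH3-only protein that binds MCL1, rose in both e1 repression and SOX2 knockout. It had 8.64 and 8.69 TPM in the CRISPRi controls and 20.8 and 20.8 TPM with e1 guides. This was a log2 fold change of 1.29 (SE 0.14, 2.45-fold), with an edgeR adjusted p of 1.41e-06. Knockout controls had 12.6 and 17.3 TPM and SOX2 guides 29.9, 36.8 and 33.3 TPM. Their log2 fold change was 1.33 (SE 0.13, 2.52-fold), with an edgeR adjusted p of 4.33e-06. Neither comparison had overlapping libraries. DMSO cultures had 6.03 and 5.08 TPM and ARV-771 cultures 1.4 and 1.64 TPM (log2 fold change -1.26, SE 0.26). In SKMES1, where it was high, PMAIP1 had 58.7 and 71.1 TPM in controls and 64.8 and 58.9 TPM with e1 guides.

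BBC3 (ENSG00000105327.11, chr19:47724079-47736023, minus strand), the gene of PUMA, was near the limit of these depths, with 4 to 92 counts per library. In the knockout it had 2.98 and 3.95 TPM in controls (31 and 33 counts) and 4.54, 5.2 and 9.01 TPM with SOX2 guides (71, 44 and 92 counts). Each SOX2 library lay above both controls, with guide 4 the highest. The log2 fold change was 1.00 (SE 0.29), with an edgeR adjusted p of 0.0131, which rose to 0.143 without the AAVS1 control and to 0.117 in limma on log2(TPM + 1). With e1 guides it had 3.82 and 1.94 TPM against 2.1 and 2.05 TPM, so the guides lay on either side of the controls (log2 fold change 0.61, SE 0.39, edgeR adjusted p 0.22). DMSO cultures had 18 and 18 counts and ARV-771 cultures 4 and 10 counts, a log2 fold change of -0.97 (SE 0.52). SKMES1 controls had 3.38 and 1.88 TPM and e1 libraries 3.71 and 3.72 TPM.

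BCL2L11 (ENSG00000153094.17, chr2:111876955-111926021, plus strand), the gene of BIM, had 3.58 and 3.81 TPM in the CRISPRi controls and 2.68 and 3.33 TPM with e1 guides (log2 fold change -0.27, SE 0.19, edgeR adjusted p 0.278). In the knockout it had 5.05 and 3.69 TPM in controls and 4.32, 8.07 and 7.66 TPM with SOX2 guides, and on counts the log2 fold change was 0.08 (SE 0.20, edgeR adjusted p 0.761). Its assigned length varied from 1024 to 4252 bases over the 17 libraries, the widest relative range of the members. DMSO cultures had 89 and 82 counts and ARV-771 cultures 9 and 18 counts, a log2 fold change of -2.27 (SE 0.31). SKMES1 controls had 2.99 and 5.48 TPM and e1 libraries 4.29 and 4.9 TPM.

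BID (ENSG00000015475.14, chr22:18216904-18257536, minus strand), a BH3-only protein activated by caspase cleavage, was high in all conditions. It had 137 to 148 TPM in the CRISPRi libraries and knockout controls except for 135 TPM in the chromosome 2 control. SOX2 guides 2, 3 and 4 gave 144, 124 and 100.3 TPM, with no call on counts (log2 fold change 0.04, SE 0.10, edgeR adjusted p 0.73). The log2 fold change with e1 guides was also 0.04 (SE 0.07, edgeR adjusted p 0.708). DMSO cultures had 142 and 133 TPM and ARV-771 cultures 140 and 133 TPM, so they overlapped by TPM, although the TMM-scaled log2 fold change was 0.64 (SE 0.06). SKMES1 controls had 138 and 105 TPM and e1 libraries 112 and 89.4 TPM. The expected counts of BID were not whole in 11 of the 17 libraries, which marks reads shared with other genes and makes its values less certain.

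Among the BH3-only genes other than BID, the summed level was above the controls in both e1 repression and SOX2 knockout. It was 16.8 and 16.9 TPM in the CRISPRi controls and 29.1 and 28.5 TPM with e1 guides. It was 24.3 and 27.1 TPM in the knockout controls and 40.2, 51.7 and 53.3 TPM with SOX2 guides. PMAIP1 was its largest part in each of these libraries. With ARV-771 the sum was 2.91 and 3.05 TPM against 15.5 and 15.4 TPM with DMSO. The pro-survival sum divided by this sum was 9.87 and 10.9 with ARV-771 and 9.73 and 10.2 with DMSO. BID made up 44.8% to 98.0% of the 5 BH3-only genes, and with it the picture differed. The sum of all 5 was 158 and 148 TPM with DMSO and 143 and 136 TPM with ARV-771, far closer than the pro-survival sums. With BID, the knockout libraries (184, 176 and 154 TPM) overlapped their controls (172 and 163 TPM), and e1 guides gave 172 and 165 TPM against 162 and 161 TPM.

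Of the effectors, BAX (ENSG00000087088.15, chr19:49458072-49465055, plus strand) had 122 and 114 TPM in the CRISPRi controls and 117 and 121 TPM with e1 guides, which overlapped (log2 fold change 0.05, SE 0.08, edgeR adjusted p 0.637). In the knockout it had 114 and 133 TPM in controls and 126, 101 and 120 TPM with SOX2 guides. The log2 fold change on counts was 0.28 (SE 0.09, edgeR adjusted p 0.0213), below the fold minimum. It was -0.09 in limma on log2(TPM + 1), and DESeq2 gave an adjusted p of 0.0835. DMSO cultures had 121 and 116 TPM and ARV-771 cultures 104 and 107 TPM, lower in both, whereas mean CPM was 55.9 and 68.2 and the TMM-scaled log2 fold change 0.75 (SE 0.07). In SKMES1, BAX had 193 and 140 TPM in controls and 153 and 138 TPM with e1 guides.

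BAK1 (ENSG00000030110.8, chr6:33540324-33548070, minus strand) had 35.1 and 36.1 TPM in the CRISPRi controls and 47.6 and 42.7 TPM with e1 guides. This rise of 0.34 on the log2 scale (SE 0.08, edgeR adjusted p 0.00382) was below the fold minimum, and DESeq2 gave an adjusted p of 0.0586. Knockout controls had 40.5 and 36.9 TPM and SOX2 guides 40.5, 40.4 and 34.7 TPM, which overlapped (log2 fold change 0.19, SE 0.11, edgeR adjusted p 0.16). DMSO cultures had 32.4 and 30.6 TPM and ARV-771 cultures 10.53 and 10.55 TPM, a log2 fold change of -0.86 (SE 0.10). SKMES1 controls had 22.9 and 22.5 TPM and e1 libraries 24.1 and 24.1 TPM. The expected counts of BAK1 were not whole in all 17 libraries, which likewise marks shared reads and an uncertain level. The ratio of BAX to BAK1 in TPM was 3.75 and 3.78 with DMSO and 9.92 and 10.1 with ARV-771.

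Calls over the family required both an edgeR adjusted p below 0.05 and more than 1.5-fold change. All 10 members passed the filter on low counts in every comparison. In e1 repression 2 members were called, PMAIP1 risen and BMF fallen, where 20% of all 13792 genes tested were called, and the median log2 fold change was 0.20 for the members and 0.00 for all genes. In SOX2 knockout 4 members were called, with BCL2L1, PMAIP1 and BBC3 risen and BCL2 fallen, where 29.7% of 13978 genes were called, and the medians were 0.23 and -0.01. The 2 of 10 and 4 of 10 stand near these shares. With ARV-771, which the choice of members used, 9 members passed the same thresholds, where 52.9% of 13500 genes did, and nothing is read from that count. By value, MCL1, BCL2L1, BCL2, BMF, BCL2L11, PMAIP1 and BAK1 were lower, and BAX and BID were higher on the TMM scale. The direction of BAX and BID flipped with the scaling, from 0.75 and 0.64 with TMM to -0.16 and -0.01 in limma on log2(TPM + 1) and -0.33 and -0.44 with scaling to mitochondrially encoded genes. Both stayed positive with library size alone (0.29 and 0.18), RLE factors (0.79 and 0.69) and DESeq2 (0.77 and 0.66). The median of well-covered genes (50 or more counts on average) was -0.62 in limma, -1.07 with mitochondrial scaling and -0.45 with library size alone. In e1 activation, BMF was the reason for the choice, so that it alone of the members passed the thresholds, where 0.188% of 14859 genes (28 genes) did, is likewise no result. Without the library of guide sg-e1#3, no member and 1 gene in all passed, and the log2 fold change of BMF was 2.40.

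**Figure D4:**
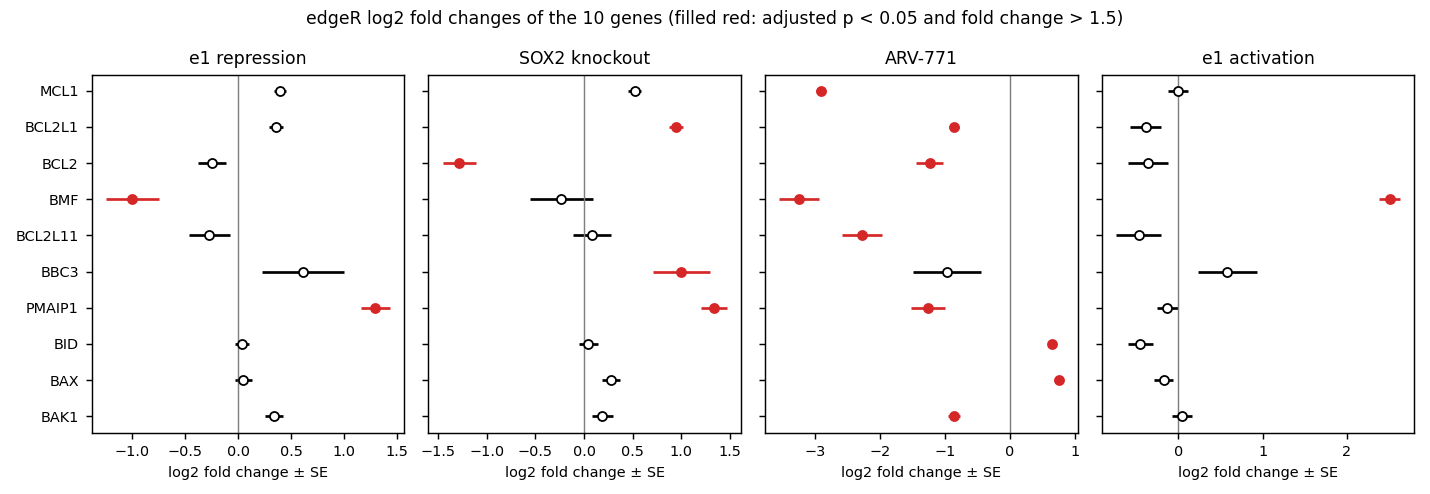
Log2 fold change with its SE (edgeR) of each of the 10 genes in the 4 comparisons, each panel with its own axis; filled red points passed both thresholds, an adjusted p below 0.05 and more than 1.5-fold change. PMAIP1 is red on the positive side in e1 repression and SOX2 knockout. The members were chosen on values in the ARV-771 and e1 activation panels, so the colours there are no test result. BMF, a reason for that choice, stands at 2.51 in e1 activation.

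Repression of e1 and knockout of SOX2 share no library, so the difference between their effects on each member was tested. Of the 10 members, 1 was called, where 16.6% of 14455 genes were called. BCL2 fell more in the knockout, by a difference of 1.05 on the log2 scale (SE 0.21), with an edgeR adjusted p of 0.00187. In limma on log2(TPM + 1) that difference was 1.13 with an adjusted p of 0.0591. BCL2L1 rose more in the knockout, with a difference of -0.57 (SE 0.09, edgeR adjusted p 3.47e-04), just below the fold minimum at 1.48-fold. For BMF, called in e1 repression alone, the difference was -0.75 (SE 0.46, edgeR adjusted p 0.255). For BBC3, called in the knockout alone, it was -0.37 (SE 0.51, edgeR adjusted p 0.645), so neither was shown to differ between the comparisons. PMAIP1 had a difference of -0.02 (SE 0.20, edgeR adjusted p 0.961). The other 5 members had adjusted p of at least 0.236 in the same edgeR test. Around the family, TNFSF10 (-2.74, SE 0.27), CFLAR (-2.06, SE 0.22) and BNIP3L (-1.65, SE 0.14) stood higher in the knockout by this test, and TNFRSF21 (1.42, SE 0.10) higher in e1 repression, each with an edgeR adjusted p of at most 1.43e-05. The comparisons also differ in the protein carried by the cells and in their control guides, whose part was not tested.

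**Figure D5:**
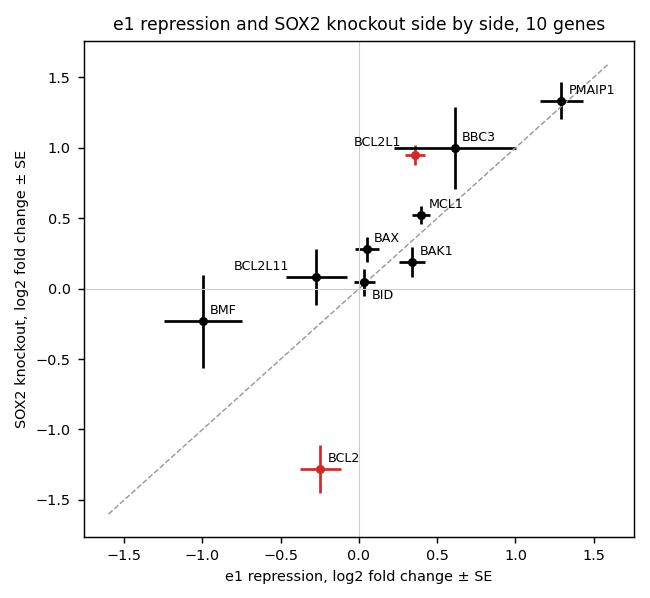
Log2 fold change with SE of each of the 10 genes in e1 repression (x axis) and SOX2 knockout (y axis), with the line of equal effects dashed and the genes with an adjusted p under 0.05 for the difference (BCL2 and BCL2L1) in red. BCL2 lies below the line at -0.25 and -1.28, and PMAIP1 lies near it at 1.29 and 1.33.

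Genes around the family were read from 6 lists, where a gene is counted as risen or fallen only if called. The share called among all genes tested was 20% in e1 repression, 29.7% in SOX2 knockout and 52.9% after ARV-771, and several of the lists stood near or below it. In e1 repression, 4 of 11 tested death receptor genes rose and 1 fell, with a list median of 0.29 against 0.00 for all genes. TNFRSF21 (log2 fold change 1.46, SE 0.07), TNFRSF10B (1.63, SE 0.10), which encodes a TRAIL receptor, and TNFRSF1A (0.85, SE 0.07), a TNF receptor, had the smallest p of them. Of 16 genes of p53 and stress responses, some of which act on BH3-only genes, 4 rose and 3 fell, led by CDKN1A (1.43, SE 0.06), a cell cycle inhibitor induced by p53, TRIB3 (1.14, SE 0.08) and ATF3 (1.55, SE 0.12), both of the integrated stress response. Of 13 partners and turnover enzymes, 3 rose and none fell, namely IER3 (1.58, SE 0.11), a partner of MCL1, BAG3 (0.73, SE 0.06), a co-chaperone that binds BCL2, and the kinase PIM1 (1.12, SE 0.14). BIRC3, an inhibitor of apoptosis, rose by 3.93 (SE 0.24) and was the single call among the 5 tested of its list, while BIRC2 (0.55, edgeR adjusted p 7.36e-04) and BIRC5 (0.22, edgeR adjusted p 0.00723) were higher by less than the fold minimum. Of 15 caspase pathway genes 2 fell, DIABLO (-0.72, SE 0.09) and CASP6 (-1.23, SE 0.19), and of 9 other BCL2 family genes 1 fell, BNIP3 (-0.84, SE 0.13), a mitophagy receptor. The edgeR adjusted p of the called genes named here were at most 6.5e-05.

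In SOX2 knockout, 5 of 11 death receptor genes rose and none fell, with a list median of 0.58 against -0.01 for all genes. TNFSF10, the TRAIL ligand (2.28, SE 0.19), TNFRSF10B (1.07, SE 0.09) and CFLAR (1.72, SE 0.16), which encodes the caspase-8 inhibitor FLIP, led them. Of the 16 p53 and stress genes 7 rose and 3 fell, with CDKN1A (2.56, SE 0.12), SESN2 (1.35, SE 0.10) and the NF-κB inhibitor NFKBIA (0.88, SE 0.08) first by p. PIM1 (2.45, SE 0.12) and BAG3 (1.35, SE 0.10) were 2 of the 3 risen partners, and the deubiquitinase USP13 (-1.27, SE 0.09) was the single one that fell. The inhibitors BIRC3 (2.81, SE 0.16) and BIRC2 (1.13, SE 0.09) rose and BIRC5, the gene of survivin (-0.70, SE 0.08), fell. No caspase pathway gene rose and 4 of 15 fell, among them PARP1 (-0.89, SE 0.07), APAF1 (-0.91, SE 0.11), the apoptosome scaffold, and DIABLO (-0.60, SE 0.09). The list median was -0.34. Of 9 other family genes BNIP3L (1.64, SE 0.10) and BOK (0.99, SE 0.18) rose and BNIP3 (-0.75, SE 0.15) fell. The edgeR adjusted p of the genes named here were at most 0.0011. With library size alone, 3 rather than 5 death receptor genes and 5 rather than 7 p53 and stress genes rose, and 7 rather than 4 caspase pathway genes fell.

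After ARV-771, 7 of 11 death receptor genes fell and none rose with TMM, led by the adaptor FADD (-3.44, SE 0.09), TNFRSF1A (-2.49, SE 0.11) and the kinase RIPK1 (-1.22, SE 0.12), and their median was -0.74 against -0.04 for all genes. Of the 16 p53 and stress genes 10 fell and none rose, with a median of -1.30, led by FOXO1 (-3.29, SE 0.15), a transcription factor known to act on BCL2L11, TP73 (-2.44, SE 0.12) and NFKBIA (-1.42, SE 0.07). The inhibitors XIAP (-0.99, SE 0.07) and BIRC2 (-1.10, SE 0.11) fell, of 4 tested. Among 13 partners 6 fell and 3 rose, including IER3 (-2.41, SE 0.12), BAG3 (-1.18, SE 0.08) and the dynein light chain gene DYNLL1 (0.77, SE 0.05). Among 15 caspase pathway genes 5 fell and 3 rose, including CASP2 (-1.73, SE 0.12), cytochrome c gene CYCS (0.74, SE 0.04) and PARP1 (0.79, SE 0.05). Of 9 other family genes 3 rose and 3 fell, with BAD (0.89, SE 0.07), BCL2L12 (0.75, SE 0.08) and BCL2L2 (-0.80, SE 0.10) first by p. The edgeR adjusted p of these genes were at most 4.53e-08. None of the lists had a risen gene with library size alone, in limma on log2(TPM + 1) or with mitochondrial scaling. All 9 calls of a rise thus depended on the scaling. Whether these genes stayed higher by less than the fold minimum is not given here. The lists were not read with RLE factors or DESeq2, so whether the rises are particular to TMM was not tested.

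In e1 activation, edgeR called none of the 72 tested genes of the 6 lists, where 28 of 14859 genes (0.188%) were called. Of the 72, 13 had an unadjusted edgeR p under 0.05. The share of all genes under that p is not given here, so nothing is read from the 13. The edgeR exact test called ATF3, BIRC3, FOXO1 and TNFSF10, DESeq2 called the first 3 of these, and limma on log2(TPM + 1) called none. Of all genes, these called 523 of 14859, 376 of 24249 and 9 of 15133. List medians lay between -0.38 for the inhibitors of apoptosis and 0.17 for the p53 and stress genes, against 0.00 for all genes.

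The genes most like MCL1 across the 17 libraries, by Pearson correlation of log2(TPM + 1) among 11032 genes with a mean of at least 5 TPM, were TGIF1 (r = 0.993), ZBTB4 (0.992) and ZNF282 (0.992). MCL1 was chosen for its low level in the ARV-771 libraries, and they enter these correlations. TGIF1 had mean levels of 41.9 TPM with DMSO and 2.21 TPM with ARV-771. In the knockout it went the other way from MCL1, with means of 81.8 TPM in controls and 78.0 TPM with SOX2 guides. There MCL1 had 129 and 164 TPM, and ZBTB4 (18.9 and 25.2 TPM) and ZNF282 (22.7 and 31.1 TPM) were also higher with SOX2 guides. Those most like BMF were MEGF9 (0.955), SNX12 (0.941) and CTGF (0.94). MEGF9 had mean levels of 11.2 TPM in SKMES1 controls and 64.7 TPM with e1 guides, and CTGF 53.9 and 430 TPM. The 17 points share lines and controls, and the ARV-771 libraries had the lowest levels of both MCL1 and BMF. BMF was highest in the SKMES1 e1 libraries, for which it was chosen, and they enter its correlations. In CRISPRi, mean levels in controls and with e1 guides were 8.46 and 4.09 TPM for MEGF9 and 35.6 and 31.5 TPM for SNX12. CTGF went the other way, at 10.95 and 23.1 TPM.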

How the data were processed

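Poly-A RNA from 17 libraries of 2 lines was sequenced from directional libraries. As deposited, each library held expected counts, TPM (a level scaled for transcript length and library) and gene lengths that the authors made by aligning reads to hg19 with Bowtie2 and quantifying GENCODE genes with RSEM, with no versions given in the sources used here. TPM and the length depend on how RSEM splits reads among the transcripts of a gene, and expected counts split reads that match several genes. Counts were rounded and tested in edgeR 4.0.16 (R 4.3.3) with TMM scaling, filterByExpr (minimum count 10, minimum total 15), the quasi-likelihood test and Benjamini-Hochberg adjustment over all genes tested, with only the compared groups in each fit. A call needed both an adjusted p below 0.05 and more than 1.5-fold change. Alternatives used the edgeR exact test, DESeq2 1.42.0, limma 3.58.1 on log2(TPM + 1) and log2(TPM + 0.1) for genes with a mean of at least 1 TPM, other scalings, filters and fold minima, all 17 libraries in 1 fit, blocking on replicate number, and each library dropped in turn. The difference between e1 repression and SOX2 knockout was a contrast over their 9 libraries. Scripts were tested on simulated data.

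The members and gene lists were chosen with earlier results of these data known, and member values after ARV-771 and on e1 activation carry no p. All 10 members are named, and from each list at most the 3 called genes with the smallest p in a comparison. BIRC2 and BIRC5 are named for e1 repression as well, where they were not called. The genes named from the lists for the difference between comparisons and for e1 activation were picked after their values were seen. Depth was 7260730 to 15781463 counts per library, so genes under about 20 counts, such as BBC3 after ARV-771, are imprecise. Coordinates came from GENCODE release 44 lifted to GRCh37, not from the release the counts used.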

Additional observations from a re-analysis of the deposited data

Results flagged for a closer look

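BCL2 and BCL2L1 had an adjusted p below 0.05 when the difference between e1 repression and SOX2 knockout was tested with edgeR over 9 libraries. Without a fold minimum, these 2 of 10 members passed where 4010 of 14455 genes did, so they do not stand above that share. With the 1.5-fold minimum BCL2 alone was called, and in limma no member was. For BCL2, the effect of e1 repression minus that of the knockout was 1.05 on the log2 scale (SE 0.21, adjusted p 0.00187), from -0.25 and -1.28. For BCL2L1 it was -0.57 (SE 0.09, adjusted p 3.47e-04), from 0.36 and 0.95. In limma on log2(TPM + 1) the BCL2L1 difference was -0.45 with an adjusted p of 0.0235, and that of BCL2 was 1.13 with an adjusted p of 0.0591. Cas9 form and control guides differ between the comparisons, and their part was not tested.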

How the results depend on the processing

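Of the counts of members called, 67 values under alternatives stayed within 1.5 times the reported count and 14 did not. In e1 repression 1 member was called with DESeq2, with a fold change over 2 and in limma with either pseudocount (BMF was lost). Of all genes, DESeq2 called 2142 of 22899, a fold change over 2 left 1526 of 13792, and limma called 1962 and 1973 of 13997. With no minimum fold 5 members were called, where 6103 of 13792 genes were. SOX2 knockout gave 2 with a fold change over 2, where 2339 of 13978 genes passed. ARV-771 gave 5 there, where 3809 of 13500 genes passed, and nothing is read from that count. For the difference given next, 2371 of 14455 genes passed with RLE factors, 2588 of 25899 with no filter and 4010 of 14455 with no minimum fold. The difference between e1 repression and SOX2 knockout gave 2 members with RLE factors, no filter or no minimum fold, 0 in limma with either pseudocount, and 1 to 2 when a library was left out, the BCL2L1 difference passing 1.5-fold without guide sg-e1#1. e1 activation gave 0 to 1 when a library was left out, 0 without sg-e1#3. Counts over all genes in e1 activation were 28 in edgeR, 523 in the exact test, 376 in DESeq2, 1116 with no filter, 784 with all 17 libraries, 9 and 8 in limma, and 1 to 764 with a library left out.

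Directions turned for the following log2 fold changes. With library size only, BID was -0.0054 in e1 repression and -0.1574 in the knockout, BCL2L11 -0.1194 and BAK1 -0.0129 in the knockout, and the PMAIP1 difference 0.1202. In limma with pseudocounts of 1 and 0.1, values were 0.1364 and 0.1639 for BCL2 and -0.0442 and -0.0445 for BID in e1 repression. In the knockout they were -0.218 and -0.2196 for BID, -0.0916 and -0.0923 for BAX and -0.0073 and -0.0075 for BAK1. After ARV-771 they were -0.0079 and -0.008 for BID and -0.1635 and -0.1648 for BAX. The differences were 0.2284 and 0.3196 for BMF and 0.0546 and 0.0874 for PMAIP1. Mitochondrial scaling after ARV-771 gave -0.4403 for BID and -0.3288 for BAX. With a library left out, BID ranged from -0.0039 to 0.0754 in e1 repression and -0.0404 to 0.1325 in the knockout, BMF from -0.5779 to 0.0248 and BCL2L11 from -0.0328 to 0.2195 in the knockout, and the differences of PMAIP1 from -0.1835 to 0.1517 and of BBC3 from -0.9311 to 0.0512. In e1 activation, limma with a pseudocount of 0.1 gave 0.1741 for BCL2L11, reported at -0.4682, and 0.0545 for MCL1, reported at -0.0001. With a library left out there, MCL1 ranged from -0.1003 to 0.1115 and PMAIP1 from -0.2478 to 0.0032. The cause was not tested.

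The share of called genes that were higher was 54.7% in the knockout with TMM, 36.2% with library size only and 38.9% in limma. After ARV-771 it was 40.0%, 5.9%, 1.89% in limma and 0.823% with mitochondrial scaling. For the difference it was 49.5%, 67.6% and 65.2%, and in e1 activation 89.3% against 77.8% in limma. Samples of the same replicate number did not deviate together (correlation 0.016 over 11145 genes in e1 repression and -0.026 over 10855 genes after ARV-771), and with a replicate block 2 and 9 members were called there, the counts reported.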
